A study of Mus musculus with 30 samples.

Results

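The ventral prostate (VP) of 5 mice fed lard (pork fat, PF) was compared with the VP of 5 mice fed soybean oil (SO), each for 32 weeks, across every gene of the count tables. These 10 libraries, chosen by diet and time from the labels, are all those deposited for both groups and come from a series of 30. All were C57BL/6 mice, with no genetic change or drug named in the labels, and per the study's methods they were males fed from weaning on diets of the same normal fat content that differed in fat source. Lard is the diet rich in saturated fatty acids, soybean oil is rich in ω-6 polyunsaturated fatty acids, and the other diet used linseed oil (LO, rich in ω-3). The comparison asks how the gene expression of the gland differs between a saturated and an ω-6 fat after long feeding. The labels do not give cages or litters, and each library is taken as 1 mouse. RNA came from whole tissue, so fewer cells of a type and less RNA per cell cannot be told apart.

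The VP is a secretory gland whose luminal epithelial cells make and export large amounts of a few proteins. Such cells depend on the endoplasmic reticulum (ER), where secreted proteins are threaded through the Sec61 channel, trimmed, glycosylated, folded by chaperones and sent to the Golgi in vesicles. When unfolded proteins build up, the sensors PERK, IRE1 and ATF6 start the unfolded protein response (UPR). PERK slows translation and raises ATF4, while ATF6 and XBP1, the latter made active by IRE1, raise chaperones and genes that send misfolded proteins to the proteasome by ER-associated degradation. Interferon-stimulated genes and MHC class I genes form the main antiviral programme of epithelial and immune cells.

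The libraries held between 27836359 and 41301707 counts in PF mice and between 29125565 and 32800730 in SO mice. Markers of the VP were abundant in all 10, with Sbp, which encodes spermine-binding protein, between 87910 and 242400 CPM (counts scaled to a common library size by TMM). The seminal vesicle markers Svs4 and Pate4 had 0 counts in all 10 mice. Tgm4, from the same marker set for seminal vesicle and anterior prostate, was high in PF mice 2 and 3, as given below. The 4 tested genes of the accessory gland list summed to between 607 and 1234 CPM in PF mice and between 470 and 1232 in SO mice. The 12 skeletal muscle genes summed to between 62.7 and 698 CPM in PF mice and between 76.3 and 453 in SO mice. The part of neighbouring tissue in the other results was not tested. PF mouse 1 had the lowest share of reads outside genes (6.67%) and stood apart in short and long genes. PF mouse 2 had the lowest share of counts in its 10 largest genes (20.7%) of the 10 mice. SO mouse 4 had the highest summed level of T and NK cell genes. The 10 largest genes took 29.5% ± 5.38 of the counts in PF mice and 23.6% ± 1.52 in SO mice (SD, n = 5 each, two-sided exact permutation test, p = 0.0556). Without PF mouse 2 the difference was 8.11 percentage points (exact p = 0.00794), and leaving out any of the other 9 mice gave an exact p from 0.0635 to 0.119.

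No gene passed an adjusted p of 0.05 in edgeR's quasi-likelihood test among 16218 genes tested, and the smallest adjusted p was 0.143. At an unadjusted p under 0.05, 926 genes were higher in PF mice (5.71% of those tested) and 822 were lower (5.07%). All 5 PF mice lay above all 5 SO mice for 198 genes (1.22%) and below them for 164 (1.01%). DESeq2, the test named in the study's methods, called 109 genes, of which 62 were higher in PF mice (0.407% of 15218 with an adjusted p) and 47 lower (0.309%). The terms higher and lower below give the sign of the edgeR log2 fold change (PF over SO), and DESeq2 adjusted p-values are given for the main genes. The p-values measure the spread between these mice only.

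The genes with the smallest p among those higher in PF mice were mostly ER and secretory pathway genes. Of the 15, Agr2 (a disulfide isomerase of the ER), Mcfd2, Manf, Hspa5, Selenok, Derl1, Bet1, Spcs3 and Kdelr3 act in the ER, its degradation system or traffic to the Golgi. Yars and Asns are targets of ATF4 that charge tRNA with tyrosine and make asparagine. They also included Pecr, a peroxisomal enoyl-CoA reductase, Hbb-bt, a beta globin, and Eef1akmt3, which methylates a translation factor. All 15 were called by DESeq2, and in 14 of them, all but Hbb-bt, the PF and SO mice did not overlap. The 15 were picked by their p in these same mice, so neither count is separate support.

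The sequences of 3 promoters are shown because their genes carry a motif that ATF6 or XBP1 can bind and were among the genes higher in PF mice. They span 250 bases before to 50 bases after the RefSeq start of the gene on GRCm38.p6, 5′ to 3′ on the gene's strand, with the motif in capitals. The ER stress element is CCAAT and CCACG 9 bases apart, so its parts are in capitals without the bases between. Hspa5 lies at chr2:34771840-34772139 (plus strand), Creld2 at chr15:88819396-88819695 (plus strand, element on the opposite strand) and Kdelr3 at chr15:79516158-79516457 (plus strand). Kdelr3 holds the unfolded protein response element TGACGTGG, also on the opposite strand.
Hspa5: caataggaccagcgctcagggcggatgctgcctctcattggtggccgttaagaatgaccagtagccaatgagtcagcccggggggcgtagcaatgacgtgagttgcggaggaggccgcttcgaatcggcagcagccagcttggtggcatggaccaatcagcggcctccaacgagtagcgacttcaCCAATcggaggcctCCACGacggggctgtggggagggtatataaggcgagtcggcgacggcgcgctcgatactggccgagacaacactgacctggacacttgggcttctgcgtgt
Creld2: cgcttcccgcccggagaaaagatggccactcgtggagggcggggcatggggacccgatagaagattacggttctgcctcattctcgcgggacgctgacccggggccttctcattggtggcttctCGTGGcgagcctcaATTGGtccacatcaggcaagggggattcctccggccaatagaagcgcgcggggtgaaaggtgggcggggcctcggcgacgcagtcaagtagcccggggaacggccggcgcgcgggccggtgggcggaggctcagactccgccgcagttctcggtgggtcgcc
Kdelr3: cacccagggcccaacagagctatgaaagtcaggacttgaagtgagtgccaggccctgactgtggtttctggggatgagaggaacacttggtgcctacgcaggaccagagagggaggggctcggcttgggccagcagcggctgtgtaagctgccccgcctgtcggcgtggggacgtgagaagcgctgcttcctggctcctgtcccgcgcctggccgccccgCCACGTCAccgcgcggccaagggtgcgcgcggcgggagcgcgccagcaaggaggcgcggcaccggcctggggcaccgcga

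Of the 29 genes of the chaperone list with a RefSeq promoter (36 in the list), 7 held an ER stress element on either strand: Calr, Canx, Creld2, Dnajc3, Hsp90b1, Hspa5 and Pdia6. That is 24.1% of the matched genes, against 0.137% of 27025 genes with a promoter in the table. The element was in 2 of 21 matched genes of the degradation list (Derl3 and Syvn1) and in 0 of the PERK-ATF4, translocation and vesicle lists. The unfolded protein response element was in 9 of 47 matched vesicle transport genes (19.1%, against 0.714% overall). It was in 2 of 29 matched chaperone genes, 2 of 21 degradation genes and 0 of the PERK-ATF4 and translocation lists. The ATF4 composite element TGATGNAAT was in 6 of 37 matched genes of the PERK-ATF4 list (16.2%, against 1.08%): Aars, Fgf21, Gars, Iars, Nupr1 and Pycr1. A match describes the sequence of the window and does not show binding. The shares come from reference sequence and from lists written around ATF6, XBP1 and ATF4, so they do not bear on the difference between the diets.

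Hspa5 (BiP; chr2:34771970-34777547 on GRCm38), the most abundant chaperone of the ER lumen and the protein that holds the UPR sensors inactive, had 2247, 1857, 1912, 1592 and 1441 CPM in PF mice 1 to 5. The SO mice had 1256, 1262, 1147, 1347 and 1215 CPM. The groups did not overlap, and PF mouse 1 was the highest. The log2 fold change was 0.54 ± 0.109 (SE) with an edgeR adjusted p of 0.204 and a DESeq2 adjusted p of 0.00138.

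Manf (chr9:106838312-106891979), a chaperone-like protein of the ER that is secreted under stress, had 244, 229, 219, 182 and 187 CPM in PF mice. In SO mice it had 130, 134, 136, 160 and 154 CPM. All PF mice lay above all SO mice, and the log2 fold change was 0.57 ± 0.105 (edgeR adjusted p = 0.204, DESeq2 adjusted p = 0.00138). Creld2, an ER resident that is a target of ATF6, had 187, 138, 114, 115 and 102 CPM in PF mice and from 84.5 to 96.1 CPM in SO mice. Its log2 fold change was 0.52 ± 0.131 (DESeq2 adjusted p = 0.0302), and without PF mouse 1 the value was 0.36. Dnajb9, a co-chaperone of BiP that XBP1 induces, had from 86.0 to 106 CPM in PF mice and from 61.2 to 73.0 in SO mice.

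Across the list of 36 ER lumen chaperones and ATF6 targets, 35 were higher in PF mice and the median log2 fold change was 0.23, against -0.00 over all genes tested. At an unadjusted p under 0.05, 21 were higher and 0 lower, against 5.71% and 5.07% of all genes tested. In 8 all PF mice lay above all SO mice, against 1.22% of all genes. DESeq2 called 5, all higher, against 0.407% of all genes with an adjusted p. The study singled out this pathway on the same mice, so these counts are not independent evidence of its direction. The mean level of the list (log2 of CPM plus 0.5, relative to the SO mean) was 0.45, 0.23, 0.19, 0.19 and 0.10 in PF mice 1 to 5 and between -0.05 and 0.06 in SO mice, so the list level also separated the diets.

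In the PERK-ATF4 branch, 37 of 41 genes tested were higher (median 0.20). Here 9 were higher and 0 lower at an unadjusted p under 0.05, against 5.71% and 5.07% of all genes tested. Without PF mouse 1 the median was 0.13, with 31 higher and 10 lower. Relative to the SO mean the level of the list was 0.31, 0.13, 0.21, 0.13 and 0.05 in PF mice, and SO mouse 1, at 0.14, lay above PF mice 2, 4 and 5. Yars had 65.8, 57.1, 67.6, 66.4 and 61.2 CPM in PF mice and 52.6, 49.5, 50.01, 53.1 and 48.8 CPM in SO mice, without overlap. Its log2 fold change was 0.32 ± 0.0621 (edgeR adjusted p = 0.204, DESeq2 adjusted p = 0.00121). Asns had from 62.4 to 76.3 CPM in PF mice and from 50.8 to 58.7 in SO mice (log2 fold change 0.36, DESeq2 adjusted p = 0.00979). Atf4 itself overlapped between the diets, with from 133 to 176 CPM in PF mice and from 109 to 139 in SO mice (DESeq2 adjusted p = 0.0748).

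In the IRE1-XBP1 and ER-associated degradation list, 26 of 29 genes were higher (median 0.14). Here 9 were higher and 0 lower at an unadjusted p under 0.05, against 5.71% and 5.07% of all genes tested. The list levels overlapped, with PF mouse 2 at 0.08 and SO mouse 1 at 0.09. Derl1 (chr15:57869502-57892448), a channel subunit that passes misfolded proteins out of the ER, had 161, 146, 150, 150 and 153 CPM in PF mice. It had 136, 127, 132, 126 and 127 CPM in SO mice. The difference was small but larger than the spread within either diet: 152 ± 5.62 against 129 ± 4.07 CPM (SD, n = 5 each), with a DESeq2 adjusted p of 3.7e-06 and an edgeR adjusted p of 0.204. Selenok, a selenoprotein of the ER membrane, had from 63.4 to 84.6 CPM in PF mice and from 48.6 to 57.4 in SO mice. Herpud1, which anchors the degradation complex, had from 439 to 601 and from 327 to 466 CPM, and its groups overlapped at SO mouse 1.

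All 42 tested genes of translocation, signal peptide cleavage and N-glycan transfer were higher in PF mice, with a median of 0.20. Of them, 19 were at an unadjusted p under 0.05, against 5.71% of all genes tested. The list levels of the diets did not overlap (from 0.10 to 0.32 in PF mice and up to 0.06 in SO mice). Spcs3, a subunit of the signal peptidase, had 267, 266, 288, 265 and 255 CPM in PF mice and 221, 229, 204, 218 and 221 CPM in SO mice. The groups did not overlap (log2 fold change 0.29 ± 0.061, DESeq2 adjusted p = 0.00256). Spcs2 of the same enzyme, Ostc of the oligosaccharyltransferase and Dpagt1, which starts the synthesis of the glycan, also had PF mice above SO mice in every case. Their log2 fold changes were 0.33, 0.41 and 0.25.

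Of 55 genes of vesicle transport between ER and Golgi, 45 were higher (median 0.17). Here 23 were higher and 0 lower at an unadjusted p under 0.05, against 5.71% and 5.07% of all genes tested. The list levels of the diets nearly met, at 0.0596 in PF mouse 1 and 0.0590 in SO mouse 1. Mcfd2 (chr17:87254443-87265935), which with Lman1 carries glycoproteins out of the ER, had 168, 148, 171, 166 and 167 CPM in PF mice. The SO mice had 136, 125, 134, 128 and 134 CPM. The groups did not overlap, and the log2 fold change was 0.32 ± 0.0537 (edgeR adjusted p = 0.143, DESeq2 adjusted p = 3.7e-06). Kdelr3, a receptor that returns escaped chaperones to the ER, had 34.7, 38.8, 47.9, 42.9 and 44.8 CPM in PF mice and from 26.0 to 32.2 in SO mice (log2 fold change 0.46 ± 0.0976). Bet1 and Sec22b, SNARE proteins of the same vesicles, had log2 fold changes of 0.34 and 0.30.

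Agr2 (chr12:35992907-36004087), which helps mucins and other secreted proteins to form disulfide bonds, was outside these lists. It had 644, 535, 585, 553 and 604 CPM in PF mice and 409, 402, 434, 408 and 474 CPM in SO mice, without overlap. The log2 fold change was 0.46 ± 0.0744 (edgeR adjusted p = 0.143, DESeq2 adjusted p = 7.59e-06). With the trend of gene length and GC content removed, a choice made after seeing the data, the change was 0.31 and the DESeq2 adjusted p was 0.165.

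**Figure D1:**
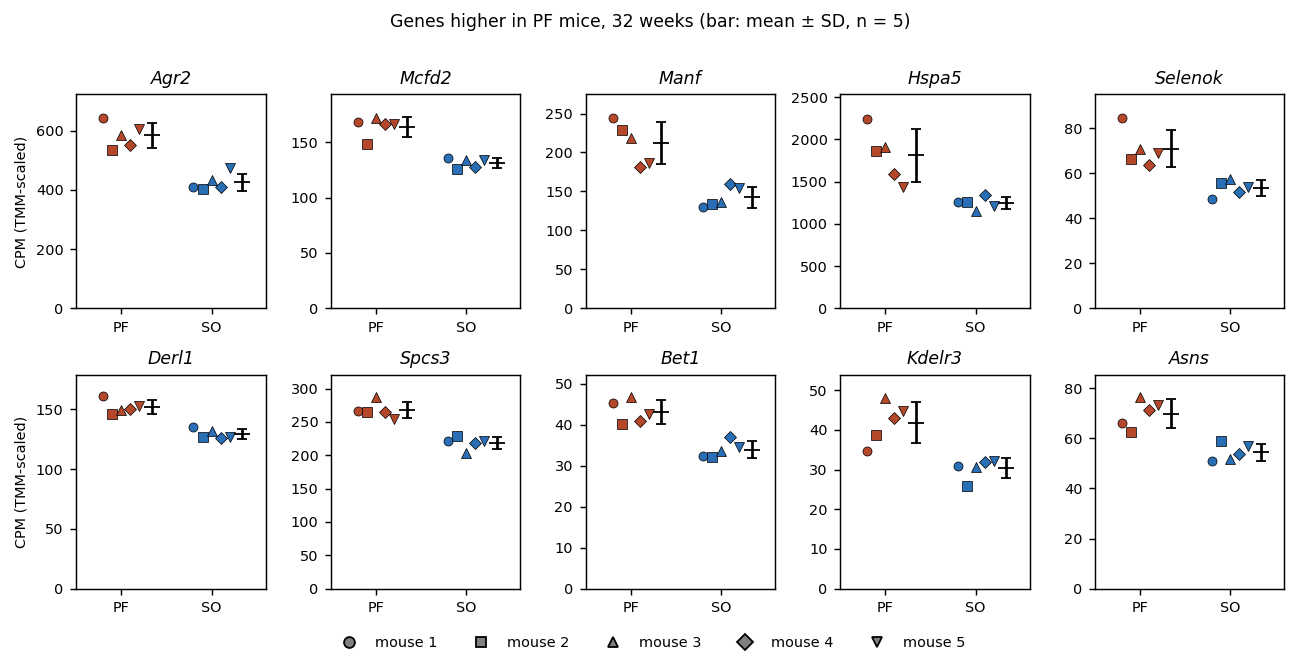
Level of 10 genes in each PF and SO mouse at 32 weeks, in CPM scaled by TMM on linear axes from 0. Points are mice (shape gives the mouse number within its diet, which was not taken to pair mice), and bars are the mean ± SD of 5 mice. The genes were picked by their p in these mice. Every PF mouse lies above every SO mouse for all 10 genes, as for Hspa5, with 1441 CPM in the lowest PF mouse and 1347 CPM in the highest SO mouse.

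Taking the 5 lists of the secretory pathway as one set of 204 genes, 201 were tested, of which 183 were higher and 18 lower in PF mice, against 49.3% higher and 50.7% lower over all genes tested. At an unadjusted p under 0.05, 79 were higher and 0 lower, against 5.71% and 5.07% of all genes tested. In 37 all PF mice lay above all SO mice, against 1.22% of all genes. Of the 62 genes that DESeq2 called higher (0.407% of all with an adjusted p), 20 were in these lists. None of the 47 called lower (0.309%) was, and at so small a share this absence is not a result about the lists. With the length and GC trend removed, 86 were higher at an unadjusted p under 0.05 (6.22% of all genes) and the median moved from 0.18 to 0.19. Median log2 fold changes of LO over SO, which share the SO mice, were from 0.02 to 0.09 in the same 5 lists.

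Secreted proteins of the VP differed less clearly. Of 21 genes of that list, 15 were higher and 6 lower, with log2 fold changes from -0.54 to 3.79 and a median of 0.19. At an unadjusted p under 0.05, 4 were higher and 0 lower, against 5.71% and 5.07% of all genes tested. With the length and GC trend removed the median was 0.06, with 14 higher and 7 lower. Sbp had 165400, 87910, 214000, 240400 and 242400 CPM in PF mice and 123400, 122300, 106000, 112700 and 120700 CPM in SO mice. PF mouse 2 was below every SO mouse and the other PF mice were above them all (log2 fold change 0.70 ± 0.251, edgeR adjusted p = 0.39). Spink1, a secreted trypsin inhibitor, had a log2 fold change of 0.53 and Sbpl, a relative of Sbp, one of 1.24 (DESeq2 adjusted p = 0.0184). Sbp and Sbpl are paralogs, so reads may be shared between them. Tgm4, the transglutaminase of the seminal clot, had 5.92, 189, 71.5, 10.1 and 8.44 CPM in PF mice and from 2.98 to 5.34 CPM in SO mice. PF mice 2 and 3 were far above the rest, and the log2 fold change of 3.79 was 2.53 without PF mouse 2 (edgeR adjusted p = 0.385 with all mice). Odc1, the first enzyme of polyamine synthesis, had from 376 to 492 CPM in PF mice and from 291 to 399 in SO mice (log2 fold change 0.39, edgeR adjusted p = 0.385), and Amd1, the next enzyme of that pathway, had a log2 fold change of 0.26.

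Scd1, which makes monounsaturated fatty acids from saturated ones, had 1116, 2727, 704, 1161 and 2326 CPM in PF mice. In SO mice it had 475, 545, 907, 633 and 783 CPM. PF mouse 3 lay within the SO range, and the log2 fold change was 1.26 ± 0.323 (edgeR adjusted p = 0.278, DESeq2 adjusted p = 0.0236). Of 27 lipogenesis genes, 24 were higher. Here 5 were higher and 1 lower at an unadjusted p under 0.05, against 5.71% and 5.07% of all genes tested. Acot1, a fatty acyl-CoA hydrolase that PPARα induces, had from 26.8 to 29.4 CPM in PF mice and from 16.3 to 28.1 in SO mice, where SO mouse 3 was apart. Acot1 has near-identical relatives, so its counts may be shared. Scd2, the second desaturase of the gland, and Dgat1, which makes triglyceride, had log2 fold changes of 0.25 and 0.29 with overlapping groups.

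The summed level of adipocyte genes, like Scd1, was highest in PF mice 2 and 5 and lowest in PF mouse 3. The sum over the 14 adipocyte genes tested was 1249, 2054, 344, 722 and 1743 CPM in PF mice and between 288 and 868 in SO mice, with 13 of 14 higher and a median log2 fold change of 1.55. Fabp4 had 206, 350, 40.6, 117 and 408 CPM in PF mice and from 24.4 to 129 in SO mice, and Cfd, Retn and Car3 had the same pattern, low in PF mouse 3. Pparg and Angptl4, an adipocyte regulator and a PPAR target, had log2 fold changes of 1.22 and 1.19 (DESeq2 adjusted p = 0.0625 and 0.0748). Thrsp, a lipogenic regulator, had 38.04, 49.5, 2.98, 13.7 and 34.2 CPM in PF mice, again lowest in PF mouse 3. The part of adipocytes in the values of Scd1, Thrsp, Pparg and Angptl4 was not tested. Globin genes were also higher: Hbb-bs had 76.9, 73.5, 128, 307 and 20.5 CPM in PF mice and from 11.9 to 37.4 CPM in SO mice (DESeq2 adjusted p = 0.00444), and Hba-a1 and Hba-a2 had log2 fold changes of 2.22 and 2.48. The summed level of the 5 red blood cell genes tested was between 44.4 and 524 CPM in PF mice and between 28.1 and 82.9 CPM in SO mice, and the part of blood in the other results was not tested. The globin genes are near-identical copies, so reads may be split between them.

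Of the 15 genes with the smallest p among those lower in PF mice, Col12a1 was the single member of the lists used here. All were called by DESeq2, and in all 15 every PF mouse lay below every SO mouse. As for the higher genes, they were picked by their p in the same mice, so this is not separate support. They were Pla2g4f, Tmem131l, the nuclear genes Pml, Dnmt1 and Dnmt3a, the ubiquitin-system genes Uba7 and Dtx4, the kinase Pask, the adhesion, matrix and cytoskeleton genes Itgb6, Col12a1, Sorbs2 and Dtna, and Nav2, Rims2 and Gabbr1, known mostly from neurons.

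Pla2g4f (chr2:120299957-120314165), a cytosolic phospholipase A2, had 7.46, 7.29, 6.42, 6.56 and 7.71 CPM in PF mice and 12.7, 12.7, 9.89, 9.28 and 11.03 CPM in SO mice. The groups did not overlap (log2 fold change -0.65 ± 0.128, edgeR adjusted p = 0.204, DESeq2 adjusted p = 0.00256). Dtx4 (chr19:12466338-12501454), a ubiquitin ligase, had 43.0, 55.8, 52.1, 49.4 and 56.5 CPM in PF mice and 68.3, 68.0, 61.6, 66.1 and 71.4 CPM in SO mice. Its log2 fold change was -0.39 ± 0.0746 (DESeq2 adjusted p = 0.00444). Col12a1, a collagen of the fibril surface, had 49.6, 71.2, 57.5, 53.3 and 61.3 CPM against from 72.9 to 90.6 CPM.

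Pml, the scaffold of PML nuclear bodies, had 44.3, 39.9, 38.1, 40.2 and 34.9 CPM in PF mice and 68.6, 54.8, 48.8, 57.9 and 48.0 CPM in SO mice. Uba7, which activates ISG15 for conjugation, had from 36.0 to 44.6 CPM in PF mice and from 46.3 to 67.9 in SO mice. Neither gene overlapped, with log2 fold changes of -0.49 and -0.52 (DESeq2 adjusted p = 0.0184 and 0.00979). Dnmt1, the DNA methyltransferase of replication, and Dnmt3a, a de novo DNA methyltransferase, had log2 fold changes of -0.40 and -0.31. With the length and GC trend removed, Dnmt3a had a log2 fold change of -0.11 and Sorbs2 one of -0.14, and the unadjusted p of each was over 0.05.

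**Figure D2:**
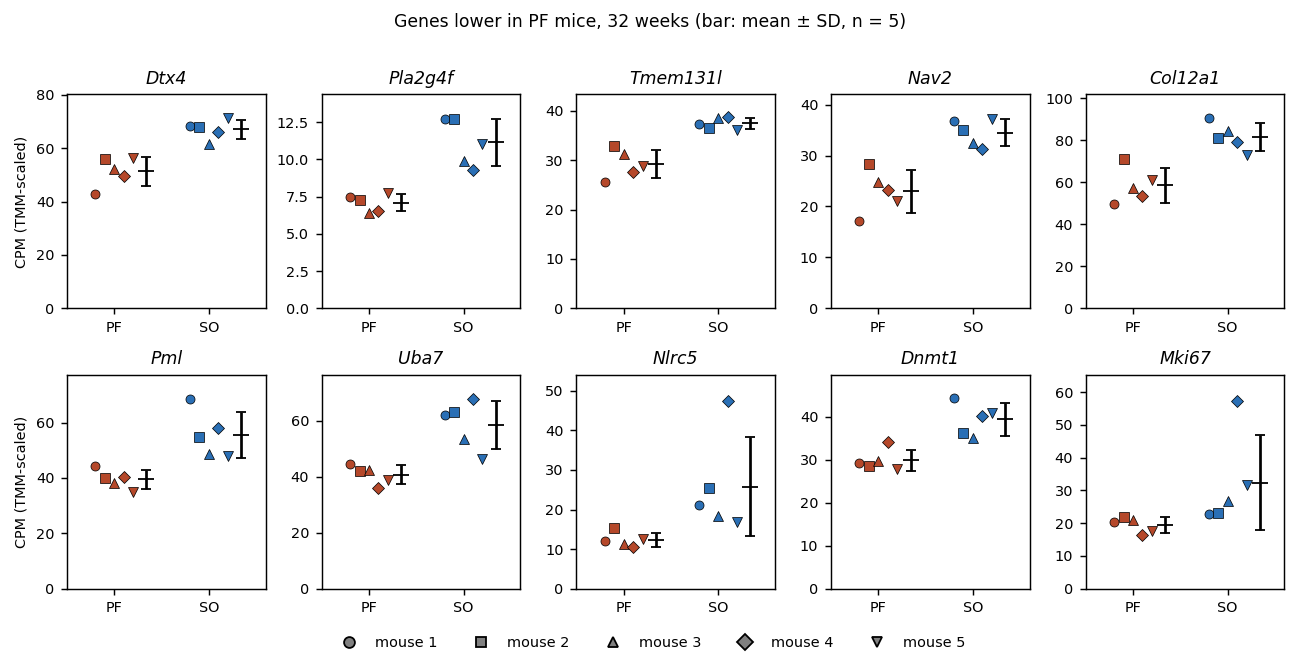
Level of 10 genes in each PF and SO mouse at 32 weeks, in CPM scaled by TMM on linear axes from 0. Shapes give the mouse number within its diet, and bars are the mean ± SD of 5 mice. The genes were picked by their p in these mice. PF mice lie below SO mice for all 10 genes, and SO mouse 4 is far above the others for Nlrc5 (47.3 CPM) and Mki67 (57.3 CPM).

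Interferon-stimulated genes were lower in PF mice as a list: all 36 had a negative log2 fold change, with a median of -0.59. Of them, 10 were at an unadjusted p under 0.05 (0 higher), against 5.07% of all genes tested lower at that level. Oas2, an antiviral oligoadenylate synthetase, had 12.6, 10.2, 6.34, 4.44 and 9.82 CPM in PF mice and 20.7, 46.4, 21.7, 94.5 and 9.47 CPM in SO mice. The groups overlapped at SO mouse 5, and SO mouse 4 was the highest (log2 fold change -2.15 ± 0.633, edgeR adjusted p = 0.344). Without SO mouse 4 the Oas2 value was -1.497. Oas3, Parp14 and Ddx58, which encodes the RNA sensor RIG-I, had log2 fold changes of -2.11, -0.65 and -0.67, with SO mouse 4 the highest in each. Relative to the SO mean, the list level was 0.12, -0.81, -0.77, -0.83 and -0.82 in PF mice 1 to 5 and 0.28, 0.06, -0.49, 0.68 and -0.53 in SO mice. Without SO mouse 4 the median of the list was -0.44, and 4 genes were at an unadjusted p under 0.05 (4.54% of all genes were lower at that level). Without PF mouse 1 the median was -0.76, and 27 genes were at that level.

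MHC class I genes were also lower in PF mice, with SO mouse 4 the highest. Nlrc5, the transactivator of MHC class I, had 12.1, 15.2, 11.2, 10.5 and 12.5 CPM in PF mice and 21.1, 25.3, 18.4, 47.3 and 16.8 CPM in SO mice. The groups did not overlap (log2 fold change -1.07 ± 0.278, DESeq2 adjusted p = 0.0302), and without SO mouse 4 the value was -0.73. Of 18 genes of MHC class I presentation 17 were lower (median -0.29). Of them, 4 were at an unadjusted p under 0.05, against 5.07% of all genes tested. The median was -0.16 without SO mouse 4, with 3 genes at that level, and -0.59 without PF mouse 1, with 12. Tap1, which pumps peptides into the ER for loading, had 48.9 CPM in PF mouse 1, from 26.2 to 27.7 in the other PF mice and from 32.8 to 59.5 in SO mice. H2-Q7 and H2-Q6, class I heavy chains with near-identical copies, had log2 fold changes of -1.30 and -1.20. Of 12 Toll-like receptor genes, which sense microbial molecules, 12 were lower (median -0.37), and without SO mouse 4 the median was -0.23, with 3 higher and 9 lower. Tlr3, the sensor of double-stranded RNA, had from 27.3 to 32.7 CPM in PF mice and from 33.96 to 46.1 in SO mice, and Tlr5, the flagellin receptor, had a log2 fold change of -0.56 with overlapping groups.

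The values of lymphocyte and cell division genes depended on SO mouse 4. The summed level of 27 T and NK cell genes was 138 CPM in SO mouse 4 and between 40.8 and 57.2 CPM in the other SO mice, against 34.7 to 65.5 CPM in PF mice. The median log2 fold change of the list was -0.60 with SO mouse 4 and 0.05 without it. Il2rb, a receptor chain of T and NK cells, had from 2.71 to 4.94 CPM in PF mice and from 4.55 to 10.8 in SO mice. Ncr1, an NK cell receptor, Cx3cr1, a chemokine receptor of monocytes and NK cells, and Itgax, the integrin CD11c, had all PF mice below all SO mice, with log2 fold changes of -0.83, -0.59 and -0.83. Each was the single such gene of its list (27 T and NK cell, 48 chemokine and 28 macrophage genes tested), against 1.01% of all genes. Of the macrophage genes, 8 were higher and 20 lower. For 42 genes of cell division and DNA replication, 39 were lower with a median of -0.41. Of them, 11 were at an unadjusted p under 0.05, against 5.07% of all genes tested. Without SO mouse 4 the median was -0.22 and 1 gene was at that level, and without PF mouse 1 the median was -0.64 and 22 were. Mki67, a marker of dividing cells, had 20.4, 21.99, 20.9, 16.5 and 17.6 CPM in PF mice and 22.6, 23.2, 26.8, 57.3 and 31.7 CPM in SO mice. Without SO mouse 4 its log2 fold change was -0.42 in place of -0.73. Kif23 (cytokinesis), Mcm5 (the replicative helicase) and Ccnd1 (cyclin D1) had log2 fold changes of -0.87, -0.56 and -0.31, and the groups overlapped for Mcm5 and Ccnd1.

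Stromal and epithelial marker lists gave small differences. All 20 smooth muscle genes were lower (median -0.15), 4 at an unadjusted p under 0.05, against 5.07% of all genes tested. Myh11, the smooth muscle myosin, had from 506 to 615 CPM in PF mice and from 608 to 960 CPM in SO mice. Without SO mouse 1 the smooth muscle median was -0.04, with 8 genes higher and 12 lower. Pgm5 and Cald1, of the same list, had log2 fold changes of -0.41 and -0.29 (edgeR adjusted p = 0.349 and 0.362). Basal cell genes were lower in 10 of 11 cases (median -0.22, and -0.34 without PF mouse 1), with Lamb3, a laminin chain, at -0.50 and Dst, which links keratin to the basement membrane, at -0.36. The Dst value was -0.10 with the length and GC trend removed. Luminal genes had a median of 0.01 (-0.26 without PF mouse 1), with Cdh1 (E-cadherin) at -0.25. Their list level was highest in PF mouse 1 and SO mouse 1, at 0.56 and 0.40 over the SO mean. The level of Krt8, a luminal keratin, was 356 ± 155 CPM in PF mice and 345 ± 97.2 in SO mice (SD, n = 5 each). Targets of the androgen receptor had a median of -0.03 over 26 genes. The macrophage, B cell, MHC class II, chemokine, cytokine and complement lists had medians between -0.19 and -0.01, which single mice moved or turned. Without SO mouse 4 the median was 0.42 for the B cell list (21 higher and 3 lower), 0.17 for MHC class II (11 higher and 2 lower), 0.02 for chemokines and 0.04 for complement. The macrophage median was between -0.25 and 0.01 and the cytokine median between -0.32 and -0.14 with 1 mouse left out. Ccl24, an eosinophil chemokine, was the single chemokine called by DESeq2 (log2 fold change 1.18 ± 0.297, adjusted p = 0.0302).

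**Figure D3:**
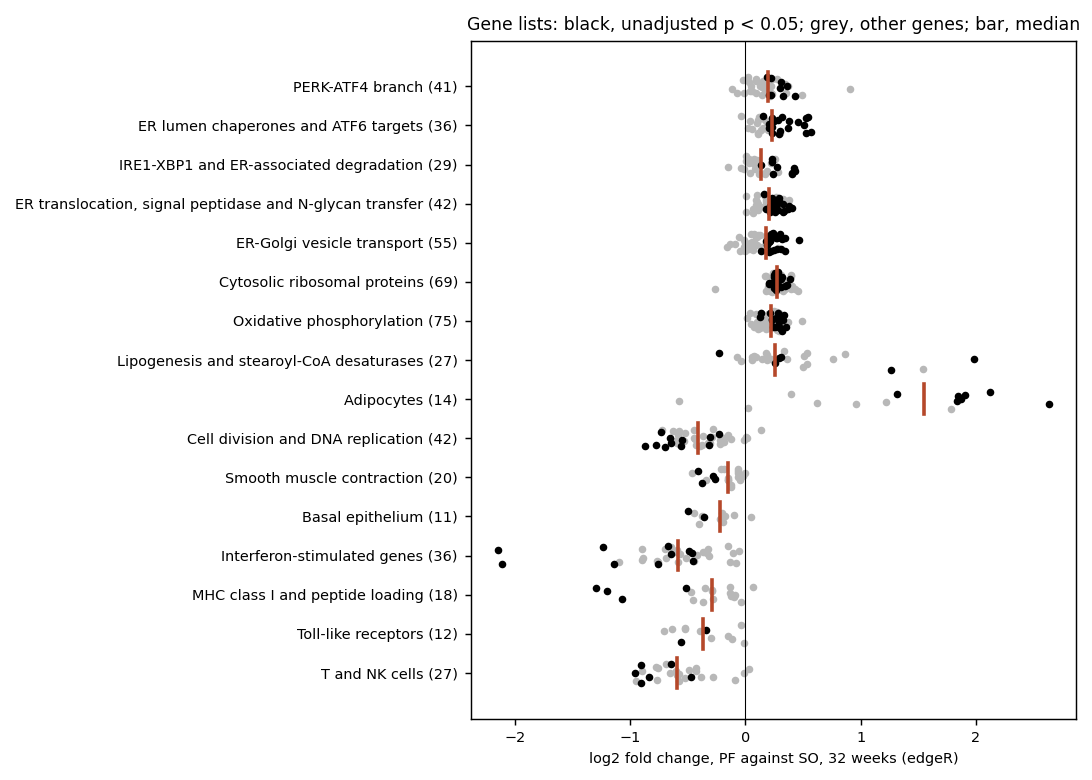
Log2 fold change (PF over SO, edgeR) of each gene in 16 lists at 32 weeks, with the number tested after the list's name. Black points have an unadjusted p under 0.05, grey points do not, and bars are medians. Medians of the ER lists lie between 0.14 and 0.23, and that of the interferon-stimulated genes at -0.59.

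Cytosolic ribosomal protein and oxidative phosphorylation genes were higher in nearly all cases, beside a trend with gene length. Of 69 cytosolic ribosomal protein genes 68 were higher (median 0.28), and of 75 oxidative phosphorylation genes 75 were higher (median 0.22). The groups did not overlap, with PF mice above, for 13 and 4 of them, against 1.22% of all genes tested. Without PF mouse 1 the medians were 0.10 and 0.05, with 50 genes higher in each list. Of 12 genes of the mitochondrial genome 7 were higher (median 0.04), and 1 was with the length and GC trend removed. In the list levels, PF mouse 1 was far above the rest, at 0.86 and 0.80 over the SO mean. PF mice 2 to 5 were between 0.01 and 0.12 and between -0.02 and 0.12, within the range of the SO mice. Rpl4, Rps4x, Uqcrfs1 and Ndufb5, the members named here for their small p, had all PF mice above all SO mice, with log2 fold changes of 0.26, 0.28, 0.29 and 0.30. Median log2 fold change over 10 bins of exon length went from 0.15 in the shortest bin to -0.12 in the longest, and PF mouse 1 deviated most, at 0.29 and -0.42. With the trend removed the medians of the lists were 0.17 and 0.13, and without the mice numbered 1 they were 0.14 and 0.07. The 5 secretory pathway lists had medians of 0.14 to 0.20 without the mice numbered 1, and the 15 lower genes named above had a median exon length of 9060 bases, against 4095 over all genes tested.

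**Figure D4:**
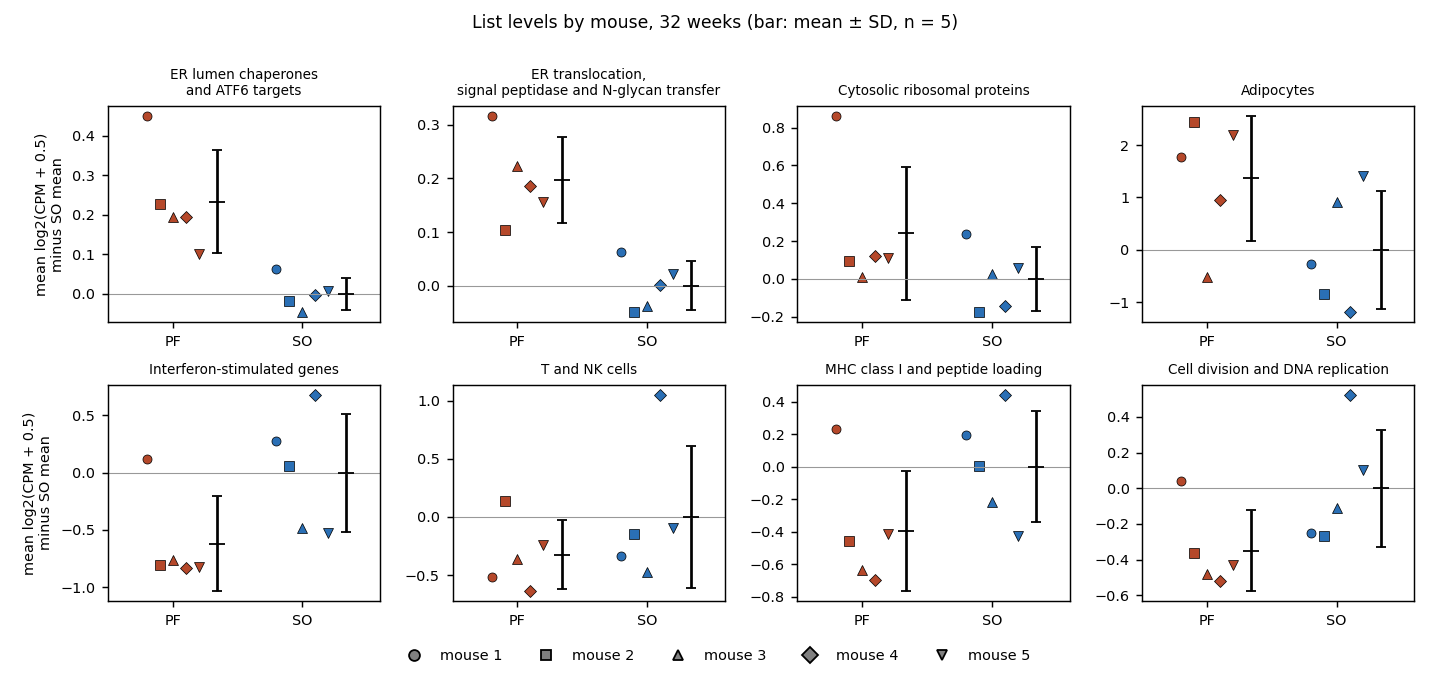
Mean level of 8 gene lists in each mouse at 32 weeks, as the mean of log2(CPM + 0.5) minus the mean of the SO mice. Shapes give the mouse number within its diet, and bars are the mean ± SD of 5 mice. PF mice lie above SO mice for both ER lists, PF mouse 1 is apart for the ribosomal genes (0.86), and SO mouse 4 is apart for T and NK cells (1.05).

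At 12 weeks of the same diets, in 5 other mice each, the immune lists had medians above 0. With all mice at 32 weeks their medians were below 0. At 12 weeks the median log2 fold change of the interferon-stimulated genes was 1.13, of the T and NK cell genes 1.12 and of the MHC class I genes 0.53. It was 0.71 for Toll-like receptors, 0.91 for macrophages, 2.19 for B cells and 1.17 for MHC class II. For chemokines, cytokines and complement it was 0.81, 0.29 and 0.43. The T and NK cell, B cell, MHC class II, chemokine and complement medians at 32 weeks changed sign without SO mouse 4, as given above. The complement median also did so without SO mouse 3 (0.14), and the macrophage median without PF mouse 4 (0.01). The interaction of diet with time had no gene at an adjusted p under 0.05 (0 of 16605, smallest adjusted p = 0.158), with 1104 genes at an unadjusted p under 0.05 where the difference was lower at 32 weeks (6.65%) and 472 where it was higher (2.84%). Of the interferon-stimulated genes, 32 of 36 were at an unadjusted p under 0.05 for the interaction, all with the difference lower at 32 weeks. Nlrc5 had a log2 fold change of 1.31 at 12 weeks and -1.07 at 32 weeks (edgeR interaction, adjusted p = 0.158). Feeding time, age and any handling of a time point cannot be told apart.

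The secretory pathway set had a median of -0.01 at 12 weeks, with 91 of 201 genes higher (44.8% of all genes tested at 12 weeks). Hspa5 already had a log2 fold change of 0.34 at 12 weeks, and its interaction had an edgeR adjusted p of 0.827. Mcfd2 was at -0.02 and Derl1 at 0.00 at 12 weeks, with interaction adjusted p of 0.237 and 0.271 in edgeR. Neither these nor any other gene was called for a difference between the times.

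**Figure D5:**
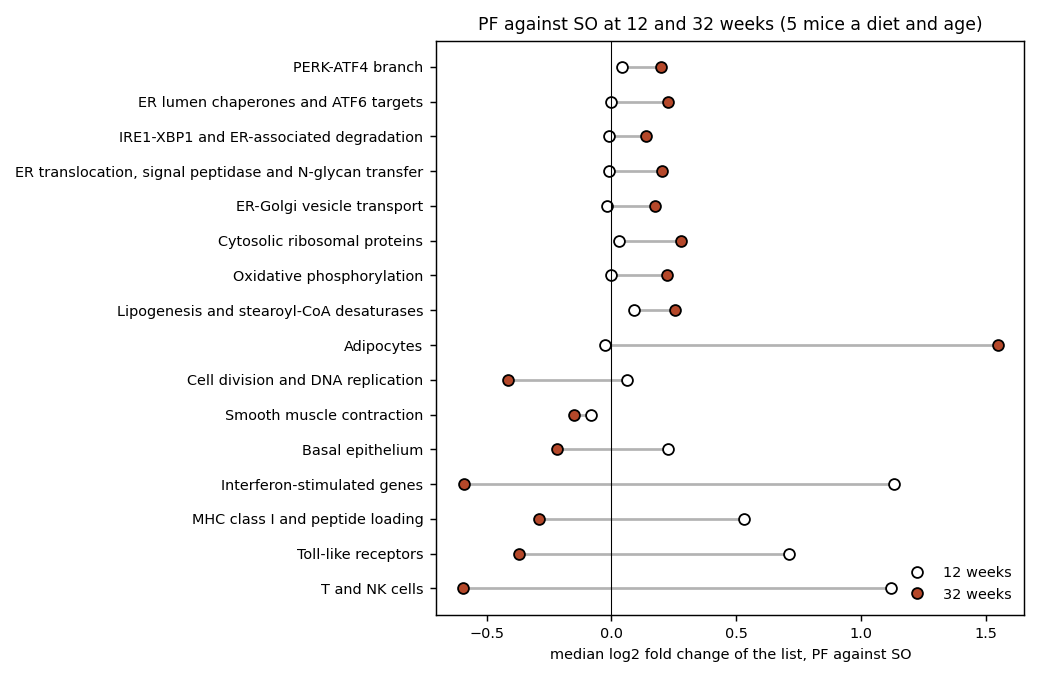
Median log2 fold change (PF over SO) of 16 lists at 12 weeks (open circles) and 32 weeks (filled circles), 5 mice a diet at each time. The interferon-stimulated genes go from 1.13 to -0.59 and the ER lists from near 0 to between 0.14 and 0.23.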

How the data were processed

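Poly(A) RNA of whole VP (RNA integrity number above 8, per the labels) was sequenced as stranded libraries. According to the submitters' processing notes, reads were mapped with TopHat2 to GRCm38.p6 and counted with HTSeq, and the authors deposited raw counts per gene and mouse. The annotation release and the strand setting are not given in the sources used here. Lines that name no gene were left out of the totals; reads outside genes were between 6.67% and 12.2% and reads without a unique place between 16.0% and 19.0% in the 10 libraries. The gene totals, from 27836359 to 41301707 per mouse, limit the precision of low genes. Symbols and coordinates came from GENCODE M21, and 37607 of 39179 gene identifiers matched.

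PF was compared with SO by edgeR 4.0.16 (quasi-likelihood test, R 4.3.3, limma 3.58.1) on 15 mice of 32 weeks in one fit, LO included so that the diets share one estimate of the spread. Genes were kept by filterByExpr, scaled by TMM, and tested two-sided with Benjamini-Hochberg adjustment. DESeq2 1.42.0 was the first alternative, and the interaction with time used all 30 mice. The text names the 15 genes of smallest p in each direction (mean of at least 1 CPM, no predicted symbols), up to 4 members of each of 41 gene lists, and tissue markers, and some genes that this rule would name are not reported here. Members and lists were chosen with earlier results of these data known. The lowest chi-square over its degrees of freedom among same-group pairs was 24.6, so the libraries of a group differed by more than sampling noise. Other settings are given in the closing section. Promoters came from RefSeq.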

Additional observations from a re-analysis of the deposited data

Results flagged for a closer look

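Of 190 groups of 5 mice examined with Dixon's test over the genes named, 20 had a mouse far from the other 4 of its diet, and chance flags about 1 group in 20. PF mouse 1 was apart in 7 of them. It was high for Tap1 (48.9 CPM, others 26.2 to 27.7), Oas3 (4.25 CPM, others 0.895 to 1.504), Rpl4 (1625 CPM, others 1411 to 1459), Uqcrfs1 (163.8 CPM, others 113.7 to 126.9), Lamb3 (15.2 CPM, others 9.04 to 10.6), Sod1 (316 CPM, others 210.9 to 226.3) and Krt8 (631.5 CPM, others 262.6 to 316.8).

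SO mouse 1 was apart, and high, for Hbb-bs (37.4 CPM), Hba-a2 (10.5 CPM), Hba-a1 (16.2 CPM), Myh11 (960.1 CPM), Dst (243.3 CPM) and Per2 (69.6 CPM). SO mouse 2 was low for Kdelr3 (26.0 CPM, others 30.6 to 32.2) and Dnmt3a (40.7 CPM, others 41.9 to 42.2) and high for Sorbs2 (198.2 CPM, others 166.3 to 173.1). SO mouse 3 was high for Acot1 (28.1 CPM, others 16.3 to 19.0). SO mouse 4 was high for Nlrc5 (47.3 CPM, others 16.8 to 25.3) and Mki67 (57.3 CPM, others 22.6 to 31.7). PF mouse 2 was low for Mcfd2 (148.1 CPM, others 166.1 to 171.3).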

How the results depend on the processing

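The edgeR test called 0 genes with other scalings, filters, samples in the fit and a threshold of 0.1, except without PF mouse 2, where 1 lower gene was called (leave-one-out range 0 to 1). It was Chl1, a neural adhesion protein named after its values were seen, with a log2 fold change of -0.98 (edgeR adjusted p = 0.0378). Genes at an unadjusted p under 0.05 numbered from 677 to 1093 higher and from 604 to 1056 lower with 1 mouse left out, and 616 were higher with PF and SO mice 1, 3, 4 and 5 only. The 41 lists hold 1103 distinct genes. DESeq2 called 62 higher (0.407% of 15218 with an adjusted p), 47 lower (0.309%) and 30 members of the lists. These counts were 82, 55 and 37 with only the PF and SO mice and 73, 58 and 27 without PF mouse 2 and SO mouse 2. They were 95, 53 and 45 without the mice numbered 1, and 53, 20 and 22 with the length and GC trend removed. These last 2 settings, the set of mice 1, 3, 4 and 5 and the DESeq2 fits without 1 mouse were chosen after seeing the data. At an adjusted p under 0.1 it called 118 higher and 89 lower. In DESeq2, leaving out 1 mouse gave 18 to 130 higher, 10 to 123 lower and 12 to 49 list members. The number of DESeq2 calls depended on single mice, lowest without SO mouse 2 and highest without PF mouse 2, and the cause was not tested. The difference in the share of the 10 largest genes was between 4.81 and 8.11 points, highest without PF mouse 2. Mouse numbers were not taken to pair the mice, since the labels do not say that a number marks a shared litter, cage or day. Same-numbered PF and SO mice had correlated deviations from -0.266 to 0.483 over 5 pairs, and 3 of 10 mice correlated best with their own number. Over the 3 diets the mean correlation was 0.127 for same numbers and -0.0278 for different ones. The mice numbered 1 did deviate together in all 3 diets, with correlations of 0.483 (PF and SO), 0.410 (PF and LO) and 0.359 (SO and LO), and had the highest luminal list levels (0.56, 0.40 and 0.51 in PF, SO and LO, against at most 0.07 in the others). With the replicate block edgeR called 0 genes, and DESeq2 called 116 higher, 91 lower and 56 list members. Most of the 94 named genes were picked by their small p in these mice, so a kept direction is not separate support. Over 4033 alternative values of these genes, Krt8, whose log2 fold change was 0.05, was the single gene to change direction. It was -0.0326 in edgeR and -0.0343 in DESeq2 with the length and GC trend removed, -0.0785 and -0.0745 without the mice numbered 1, and between -0.26 (without PF mouse 1) and 0.23 (without SO mouse 1) with 1 mouse left out. Of 1107 alternative list medians, 12 moved by more than the spread between replicates, and 55 medians, of 17 lists, changed sign. Counting depth limits genes near 1 CPM, such as Ncr1.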

Other observations

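Immediate early genes were higher in PF mice in 24 of 27 cases (median log2 fold change 0.37). Of them, 4 were at an unadjusted p under 0.05, against 5.71% of all genes tested. Without PF mouse 2 the median was 0.19 and 0 genes were at that level. Fosb, a transcription factor of that group, had 2.85, 19.6, 10.7, 1.04 and 2.79 CPM in PF mice and from 1.77 to 3.47 CPM in SO mice, so PF mice 2 and 3 were apart. Dusp1, a phosphatase induced by stress, was also highest in PF mice 2 and 3, with 55.3 and 43.0 CPM, and had from 13.5 to 26.2 CPM in SO mice.

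Circadian clock genes were lower in 20 of 23 cases (median -0.14, and -0.08 without SO mouse 1), and Per2 and Per3, repressors of the clock, had log2 fold changes of -0.51 and -0.38 with overlapping groups. The time of day of tissue collection was not used here. Of 36 antioxidant genes 27 were higher (median 0.17, and 0.01 without PF mouse 1), and Sod1 and Prdx3, which remove superoxide and peroxide, had all PF mice above all SO mice with log2 fold changes of 0.35 and 0.18. The Prdx3 value was 0.06 with the length and GC trend removed. Cytosolic heat-shock genes had a median of 0.14 (0.08 without PF mouse 1). With 1 mouse left out, the median was between -0.02 and 0.12 for cholesterol synthesis genes and between -0.05 and 0.07 for PUFA desaturases and elongases.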
